A study of Homo sapiens with 30 samples.

Results

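The 60 genes described here encode proteins of the cytosolic ribosome. They were chosen by gene symbol: RPL or RPS with a number, RPLP0 to RPLP2 and RPSA, without pseudogenes and without the RPS6K kinases. Of 22177 probes on the array, 71 probes for 64 genes had such a symbol, and 67 probes for 60 genes were kept because the 3 arrays of 1 or more groups each had a detection p under 0.01. These 60 genes, 23 of the small and 37 of the large subunit, were part of 11526 tested features. RPL10, RPL10L, RPL39L and RPL3L were not detected on any of the 30 arrays. RPS27, RPS27A, RPLP0 and RPLP1 are not analysed here. The cells were HCT116, an established human colorectal cancer line, in 2 isogenic forms: cells without p53 (p53KO) and wild-type cells (WT). Each form was left untreated or kept for 16 h in 1, 10 or 100 nM actinomycin D, or in 4 µM nutlin-3, with 3 arrays per group in 10 groups. The labels name 1 line of each genotype, so nothing here separates the loss of p53 from other differences between these lines. Whether the 3 arrays of a group stem from independent cultures is not stated, and the tests below therefore measure array-to-array spread that may be purely technical.

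A ribosome is built from ribosomal RNA, made by RNA polymerase I in the nucleolus, and from proteins that growing cells make in matched amounts. Actinomycin D binds DNA. At the lowest doses it blocks mainly RNA polymerase I, and at higher doses transcription in general. When ribosome assembly is disturbed, RPL5 and RPL11, together with the 5S RNA, bind MDM2, the ubiquitin ligase that keeps p53 low, and p53 accumulates. Nutlin-3 frees p53 from MDM2 directly. The mRNAs of ribosomal proteins are long-lived and abundant, and they begin with a 5′ terminal oligopyrimidine stretch (TOP), a C followed by pyrimidines, through which mTOR signalling sets their translation. RPS27L, a paralog of RPS27, is also known as a gene that p53 induces.

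The starts of 9 members whose values are given below are shown because the TOP stretch is the feature this gene family shares. Promoter windows from RefSeq (build GRCh38.p14) matched 51 of the 60 genes by symbol. RPL23, RPL23A, RPL30, RPL37, RPL5, RPL7, RPL8, RPS15A and RPS20 had no match. Each line gives 30 bases 5′ to 3′ on the gene's strand, 10 bases before the annotated start and 20 from it on. Capitals mark a C followed by at least 4 pyrimidines (C or T), searched on the gene's own strand from 5 bases before to 5 bases after the start and shown to the end of the pyrimidine run. RPL13A, RPL10A and RPL22, and in WT cells RPL3, had lower levels at 10 nM actinomycin D. RPL34 and RPL32 had higher levels at 10 nM on their brighter probes, and RPS26 and RPL28 lower levels at 100 nM. RPS27L was lower on all untreated and actinomycin D arrays of p53KO cells than on the WT arrays of the same dose.
RPL13A, chr19:49487598-49487627, plus strand: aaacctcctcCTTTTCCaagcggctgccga
RPL10A, chr6:35468391-35468420, plus strand: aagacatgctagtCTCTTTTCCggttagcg
RPL3, chr22:39319604-39319633, minus strand: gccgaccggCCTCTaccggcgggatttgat
RPL22, chr1:6199576-6199605, minus strand: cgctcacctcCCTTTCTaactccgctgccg
RPL34, chr4:108620566-108620595, plus strand: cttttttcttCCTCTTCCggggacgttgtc
RPL32, chr3:12841546-12841575, minus strand: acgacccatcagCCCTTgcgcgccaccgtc
RPS26, chr12:56041908-56041937, plus strand: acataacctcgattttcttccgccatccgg
RPL28, chr19:55385922-55385951, plus strand: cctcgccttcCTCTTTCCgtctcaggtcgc
RPS27L, chr15:63157458-63157487, minus strand: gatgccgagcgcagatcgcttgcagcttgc

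The stretch began exactly at the annotated start in 33 of the 51 members (64.7%), and in 4.04% of 27305 promoters of the whole table. Within 5 bases of the start it was found in 41 members (80.4%) and in 21.1% of all promoters. RPS27L and RPS26 had none in that window, which says only that these letters are not there under this annotated start. At 100 nM actinomycin D, 9 of 33 genes with the stretch exactly at the start and 4 of 18 without it there passed the test in p53KO cells, and 11 of 33 and 4 of 18 in WT cells, where 66.1% (p53KO) and 65.7% (WT) of all features passed.

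Intensities are on a log2 scale after background correction and quantile normalisation, so a difference of 1 is a 2-fold difference. A gene passed the test at an adjusted p under 0.05 (limma, Benjamini-Hochberg over the 11526 features of a comparison). Arrays had 10101 to 12629 detected probes. The 75th percentile of raw intensity was 108 ± 8.60 units at 100 nM actinomycin D in p53KO cells and 121 ± 13.5 in WT cells, against 221 ± 28.3 in untreated p53KO and 260 ± 17.2 in untreated WT cells (SD, n = 3 each). The arrays lay on 7 slides, and no slide held both actinomycin D and untreated arrays, so slide and treatment cannot be told apart there except through a random slide term. Of 8 colon epithelial markers, 5 were detected on all arrays and CDX1 and VIL1 on none. Of 9 markers of other cell types on the array, 0 were detected on all arrays and 5 on none. Of the 2 that were tested, COL1A1 rose at 100 nM by 0.98 in p53KO and 0.42 in WT cells and CD14 by 2.09 and 2.54, and their part in the results at this dose was not tested. A total of 4 arrays are doubted. PROM1, a membrane glycoprotein gene, was at 4.19 to 4.97 on the other p53KO arrays and at 8.13 to 9.00 on the other WT arrays. Against their labels, PROM1 was at 9.07 in the library labelled p53KO nutlin replicate 3 and at 4.36 in the one labelled WT nutlin replicate 3. The first untreated array of each genotype, on slide 2, stood apart from the other two, on slide 4. Values keep all arrays as labelled. Where a named change lost its call or moved by over 1.5 times without these 4 arrays, both values are given.

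Ribosomal protein probes were among the brightest on the arrays. Levels averaged over 30 arrays ran from 14.22 for RPS6, a small subunit protein phosphorylated by S6 kinase, to 5.65 for RPL36A. RPL38 (14.21) and RPL11 (14.19) followed RPS6, and RPS26 (7.28) and RPL32 (6.84) stood just above RPL36A. Levels of different genes come from different probes and do not rank their transcripts. A level of 13 or more was reached by 34 members, whose raw intensities in untreated WT cells were 8230 to 18264 units. Among all 11526 features, 128 were that bright. A further 18 members lay between 10 and 13, and 8 lay under 10 (RPL27A, RPL37A, RPL37, RPL41, RPL28, RPS26, RPL32 and RPL36A). The median SD between arrays of a group was 0.04 for the 34 brightest, 0.16 for the 18 in the middle and 0.17 for the 8 dimmest. The median range of the 10 group means was 0.15, 0.93 and 2.11 in the same order. Of the 60 members, 25 passed the test in at least 1 of 8 treatment comparisons and 35 in none, and 29 never changed by 0.2 in any of them. At 100 nM actinomycin D alone, 66.1% (p53KO) and 65.7% (WT) of all features passed. These counts are after quantile normalisation, which ties the brightest probes of all arrays to the same values. After median scaling 57 members were higher and 2 lower at 100 nM in each genotype, so the counts do not show stable levels.

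**Figure D1:**
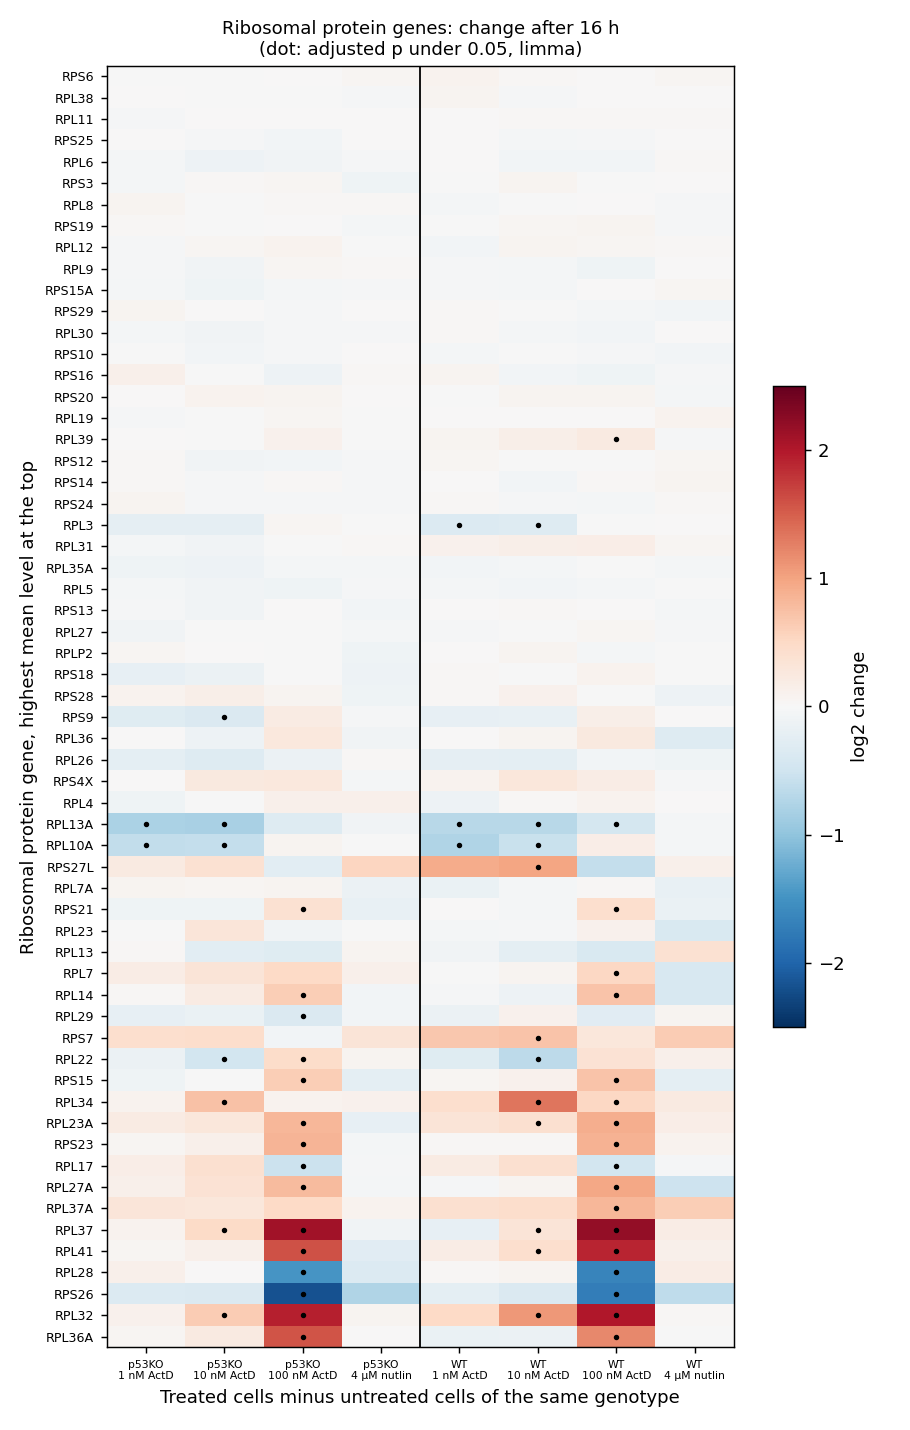
log2 change, after quantile normalisation, of the 60 ribosomal protein genes (rows, highest mean level at the top) in treated against untreated cells. The left 4 columns are p53KO and the right 4 WT. Dots mark an adjusted p under 0.05. Most rows at the top are near 0 in all columns, and the strongest colours are those of dim genes at 100 nM actinomycin D, such as RPL37 (2.09 in p53KO, 2.20 in WT) and RPS26 (-2.17 and -1.72).

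RPS27L had the largest difference in level between the untreated genotypes of the 60 members, though without a slide term it did not pass the test with all arrays. With slide as a fixed block it passed (-0.87 ± 0.13, limma, adjusted p = 1.30e-04). In p53KO cells its level was 11.54, 11.82 and 11.95 on the untreated arrays, 11.86, 12.16 and 11.96 at 1 nM actinomycin D, 12.00, 12.25 and 12.19 at 10 nM and 11.63, 11.50 and 11.40 at 100 nM. In WT cells it was 12.80, 12.57 and 12.54 untreated, 13.43, 13.80 and 13.49 at 1 nM, 13.49, 13.79 and 13.61 at 10 nM and 12.20, 12.04 and 11.88 at 100 nM. At each of these doses every p53KO array lay below every WT array. All WT arrays at 1 and 10 nM lay above the untreated WT arrays, and all at 100 nM below them. With nutlin the p53KO arrays had 11.71, 11.85 and 13.37 and the WT arrays 13.19, 13.30 and 11.79. The third array of each genotype stood at the level of the other genotype, as it did for PROM1.

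In WT cells RPS27L rose at 10 nM by 0.99 ± 0.32 (log2, SE, adjusted p = 0.0186, limma). At 1 nM its change was 0.94 ± 0.32 (adjusted p = 0.0619), and with nutlin 0.12 ± 0.32. Its changes in p53KO cells were 0.22, 0.38 and 0.55 at 1 nM, 10 nM and with nutlin, each ± 0.32, and none passed the test. The spread behind these SEs includes the 4 doubted arrays. Without them the changes in p53KO cells were 0.11 ± 0.14 at 1 nM, 0.27 ± 0.14 at 10 nM and -0.10 ± 0.15 with nutlin, none past the test. In WT cells they were 1.02 ± 0.14 (adjusted p = 2.80e-05), 1.07 ± 0.14 (adjusted p = 4.19e-06) and 0.69 ± 0.15 (adjusted p = 0.0178), so all 3 passed. The doubted nutlin arrays stood out in RPS27L itself as well as in PROM1. The smaller SEs and the nutlin changes without them are therefore not independent of that choice. For nutlin, 1 of 3 arrays was left out in each group compared. The p53KO response minus the WT response was then -0.91 ± 0.19 at 1 nM (adjusted p = 0.0200) and -0.81 ± 0.19 at 10 nM (adjusted p = 0.0237), against -0.71 ± 0.45 and -0.61 ± 0.45 with all arrays, where neither passed. With a random slide term and all arrays, the WT change at 10 nM no longer passed (1.00 ± 0.39, adjusted p = 0.0786). Leaving out WT untreated replicate 2 or 3, or WT 10 nM replicate 2, ended that call as well (changes of 0.96, 0.94 and 0.91, adjusted p = 0.0515, 0.0566 and 0.0662).

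Between doses RPS27L was lower at 100 nM than at 10 nM in WT cells, by -1.59 ± 0.32 (adjusted p = 1.05e-04), and the difference in p53KO cells was -0.64 ± 0.32 (adjusted p = 0.0788), which passed without the 4 doubted arrays (-0.64 ± 0.12, adjusted p = 7.60e-05) and was 0.25 ± 0.30 after median scaling. The sign of its change from untreated to 100 nM depended on the scaling. After quantile normalisation it was -0.26 ± 0.32 in p53KO and -0.60 ± 0.32 in WT cells, neither past the test. Without the 4 doubted arrays both passed, at -0.37 ± 0.14 (adjusted p = 0.0186) in p53KO and -0.52 ± 0.14 (adjusted p = 0.00193) in WT cells. With arrays scaled to the same median it was 0.74 ± 0.30 (adjusted p = 0.0269) in p53KO and 0.75 ± 0.30 (adjusted p = 0.0270) in WT cells, and the WT difference between 100 and 10 nM was -0.40 ± 0.30 (adjusted p = 0.227). A raw intensity of 2266 ± 514 units in p53KO and 4260 ± 1257 in WT cells at 100 nM stood against 3150 ± 618 and 6200 ± 442 in the untreated cells of each genotype (SD, n = 3).

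**Figure D2:**
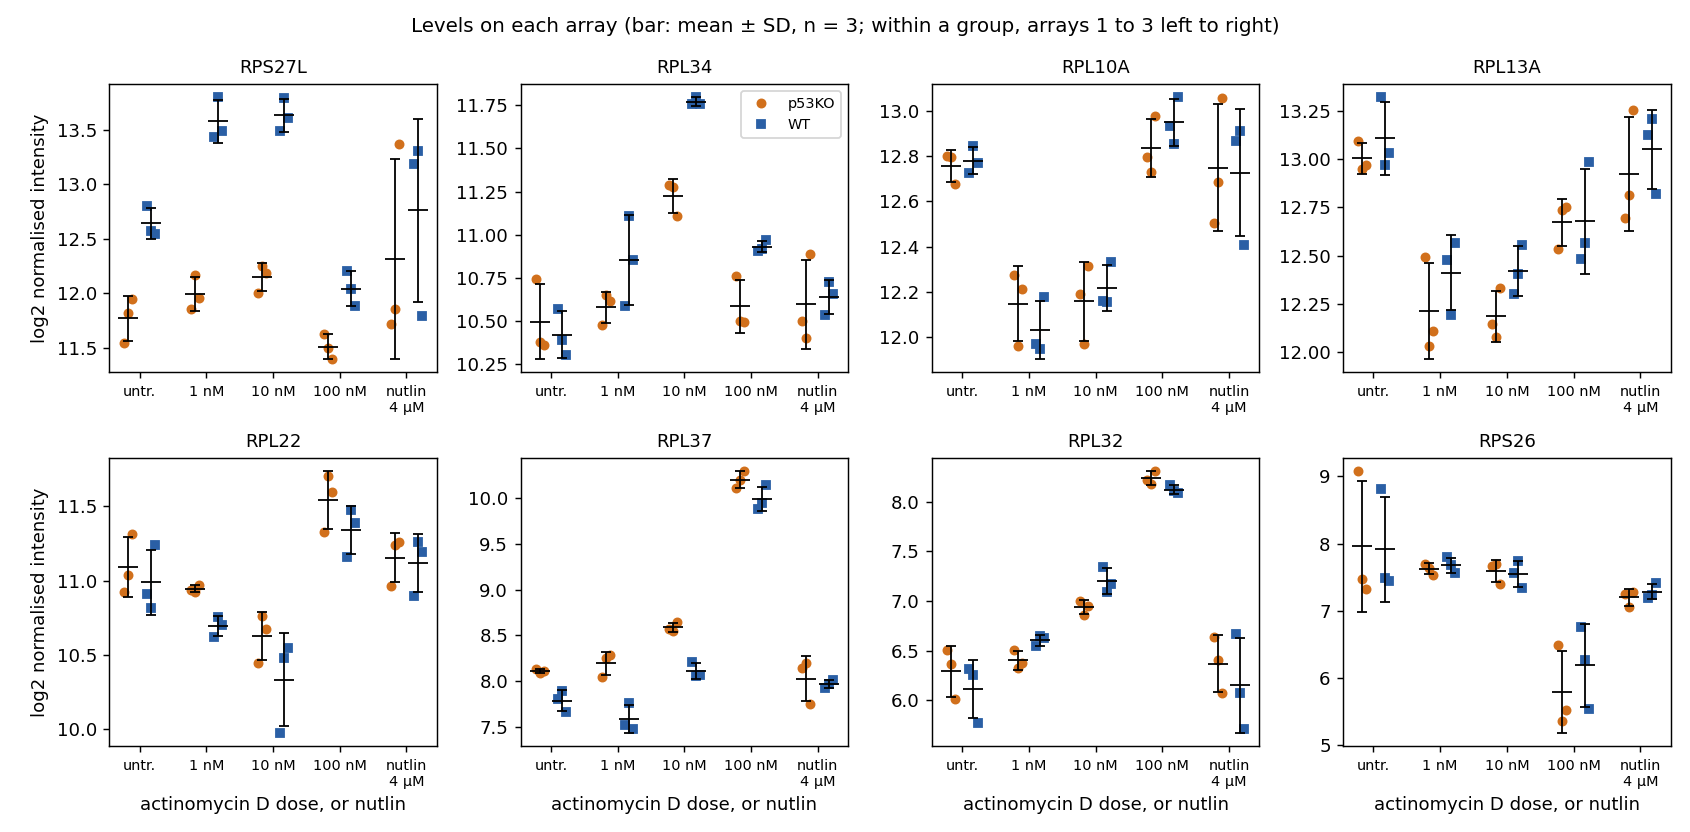
log2 normalised intensity of 8 ribosomal protein genes on each array, by treatment, with p53KO (circles) left of WT (squares) and the mean ± SD of 3 arrays. RPS27L at 1 and 10 nM lies at 13.43 to 13.80 in WT and 11.86 to 12.25 in p53KO cells. RPL10A, RPL13A and RPL37 move alike in both genotypes. Vertical axes differ between panels and do not start at 0.

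At 1 nM actinomycin D few members moved. In p53KO cells 2 of 60 passed the test, both lower (0.807% of all features passed, 0.312% higher and 0.495% lower), and in WT cells 3 of 60, all lower (9.31% of all features, 4.06% higher and 5.25% lower). RPL10A, a large subunit protein, had 12.27, 11.96 and 12.21 at 1 nM in p53KO cells against 12.80, 12.80 and 12.68 untreated, and 11.97, 11.94 and 12.18 in WT cells against 12.73, 12.84 and 12.77. RPL13A, a large subunit protein that also acts in interferon-gamma-dependent translational control, had 12.49, 12.03 and 12.11 in p53KO cells against 13.10, 12.95 and 12.97 untreated. Its levels in WT cells were 12.47, 12.19 and 12.57 against 13.32, 12.97 and 13.03. For both genes and both genotypes, every treated array lay below every untreated array. RPL10A fell by 0.61 ± 0.15 in p53KO (adjusted p = 0.0423) and by 0.75 ± 0.15 in WT cells (adjusted p = 0.00176). RPL13A fell by 0.79 ± 0.17 (adjusted p = 0.0186) and 0.70 ± 0.17 (adjusted p = 0.00880). RPL3, a protein near the peptidyl transferase centre, fell by 0.34 ± 0.09 in WT cells (adjusted p = 0.0224). Both p53KO calls were lost when any 1 array other than the first 1 nM array was left out. In WT cells the RPL13A call was lost without 1 nM replicate 2, and that of RPL3 without untreated replicate 3 or 1 nM replicate 2 or 3. All 1 nM arrays lay on 1 slide that held no other group, and with a random slide term 0 members passed in either genotype. The shares of all features under that model are not given here, so this count has no background. After median scaling 0 members passed in p53KO cells, and 1 was higher (RPS27L, 1.06) and 2 lower in WT cells. With that scaling 0.226% of all features were higher and 0.20% lower in p53KO, and 4.36% higher and 4.74% lower in WT cells.

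At 10 nM, 7 members passed in p53KO cells, 3 higher and 4 lower (21.6% of all features passed, 10.4% higher and 11.2% lower), and 11 in WT cells, 7 higher and 4 lower (30.9% of all features, 15.6% higher and 15.4% lower). The members' shares, 11.7% and 18.3%, were below those backgrounds. After median scaling instead, 5 members were higher and 2 lower in p53KO cells, where 12.1% of all features were higher and 11.9% lower. Higher members were then 71.4% of the members that passed, against 42.9% after quantile normalisation. The median change of the 60 was -0.01 in p53KO and 0.00 in WT cells, against 0.04 and 0.03 over all features. Of the 7 members that passed in p53KO cells, 6 (85.7%) also passed in WT cells, where they were 54.5% of the 11, all in the same direction. Over all features the shares were 71.7% and 50.2%. These members were RPL34, RPL32 and RPL37, which were higher, and RPL13A, RPL10A and RPL22, which were lower.

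On the brightest probe of each gene, RPL34, a large subunit protein, had the largest rise at 10 nM. Its level was 11.29, 11.28 and 11.11 in p53KO cells at 10 nM against 10.75, 10.38 and 10.36 untreated, and 11.75, 11.80 and 11.76 in WT cells against 10.57, 10.39 and 10.31. The treated arrays of each genotype lay above all untreated ones, and the WT arrays at 10 nM above all p53KO arrays at 10 nM. The rise was 0.73 ± 0.14 in p53KO (adjusted p = 5.79e-04) and 1.35 ± 0.14 in WT cells (adjusted p = 2.85e-07). The difference between these responses was -0.62 ± 0.20 (adjusted p = 0.189), which passed with slide as a fixed block (-0.61 ± 0.17, adjusted p = 0.0497) and, with genotypes paired by replicate number and the 4 doubted arrays left out, at -0.57 ± 0.16 (adjusted p = 0.0489). At 100 nM RPL34 had 10.76, 10.50 and 10.49 in p53KO and 10.91, 10.92 and 10.97 in WT cells, lower than at 10 nM by 0.64 ± 0.14 and 0.84 ± 0.14. After median scaling the differences between doses were -0.04 in p53KO and -0.01 in WT cells, and neither passed. A second, dimmer RPL34 probe did not pass at 10 nM (-0.33 ± 0.17 in p53KO and 0.09 ± 0.17 in WT cells). That probe went the other way between the doses, higher at 100 than at 10 nM by 0.86 ± 0.17 in p53KO (adjusted p = 1.18e-04) and 0.88 ± 0.17 in WT cells (adjusted p = 8.43e-05).

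RPL32 and RPL37, of the large subunit, rose by 0.64 ± 0.18 and 0.48 ± 0.12 in p53KO cells at 10 nM (adjusted p = 0.0128 and 0.00556), and by 1.09 ± 0.18 and 0.32 ± 0.12 in WT cells (adjusted p = 8.32e-05 and 0.0433). A second RPL32 probe of similar mean level (6.63 against 6.84) changed by 0.02 ± 0.16 in p53KO and 0.20 ± 0.16 in WT cells. Neither change of that probe passed, so the rise of RPL32 at 10 nM rests on 1 of its probes. RPL13A fell by 0.82 ± 0.17 in p53KO and 0.69 ± 0.17 in WT cells. RPL10A fell by 0.60 ± 0.15 and 0.57 ± 0.15. RPL22, a large subunit protein known as a haploinsufficient tumour suppressor in T cell leukaemia, had 10.44, 10.76 and 10.68 in p53KO cells against 10.92, 11.04 and 11.32 untreated, and 9.97, 10.48 and 10.54 in WT cells against 10.91, 10.81 and 11.24. Its arrays at 10 nM lay below all untreated ones in both genotypes, with falls of 0.47 ± 0.16 (adjusted p = 0.0359) and 0.66 ± 0.16 (adjusted p = 0.00263). In WT cells RPS7, an MDM2-binding small subunit protein, rose by 0.72 ± 0.24 (adjusted p = 0.0221), RPL41, the smallest ribosomal protein, by 0.41 ± 0.14 and RPL23A by 0.40 ± 0.13. RPL3 fell by 0.32 ± 0.09 in WT and RPS9 by 0.36 ± 0.11 in p53KO cells. RPS7 was at 9.81 on the first untreated WT array and at 10.92 and 10.72 on the others, and without the 4 doubted arrays its change was 0.39 (adjusted p = 0.108), no longer past the test. It did not pass without WT 10 nM replicate 2 or 3 either (0.67 and 0.71). The WT call of RPL37 was lost when any 1 array other than untreated replicate 2 was left out (0.26 to 0.35). The p53KO call of RPL22 was lost without untreated replicate 2 or 3 or 10 nM replicate 1 or 3, that of RPL32 without untreated replicate 3 or 10 nM replicate 1, and that of RPS9 without untreated replicate 1 or 10 nM replicate 2. In WT cells the call of RPL41 was lost without untreated replicate 3 or 10 nM replicate 1 or 2, that of RPL23A without untreated replicate 1 or 10 nM replicate 3, and that of RPL3 without untreated replicate 3. With a random slide term 2 members passed in p53KO and 4 in WT cells, and the shares of all features under that model are not given here.

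At 100 nM actinomycin D the changes were largest among the dim members. In p53KO cells 15 members passed, 11 higher and 4 lower (66.1% of all features passed, 33.8% higher and 32.3% lower), and in WT cells 18 members, 14 higher and 4 lower (65.7% of all features, 33.2% higher and 32.5% lower). Of these, 13 passed in both genotypes in the same direction, 86.7% of the p53KO and 72.2% of the WT list, and over all features the shares were 87.6% and 88.0%. By level, 0 of the 34 brightest members, 8 of the 18 in the middle and 7 of the 8 dimmest passed in p53KO cells. In WT cells 1, 9 and 8 did. Of the 94 other features at a level of 13 or more, 31.9% passed in p53KO and 28.7% in WT cells. The median change of the 60 members was 0.02 in p53KO and 0.03 in WT cells.

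RPL37 rose most. It had 10.11, 10.20 and 10.30 at 100 nM in p53KO cells against 8.14, 8.09 and 8.11 untreated, and 9.89, 9.95 and 10.15 in WT cells against 7.81, 7.89 and 7.67. No array of 1 group came within 1 log2 unit of the other group. The rise was 2.09 ± 0.12 in p53KO (adjusted p = 2.14e-13) and 2.20 ± 0.12 in WT cells (adjusted p = 6.94e-14). RPL32 had 8.22, 8.18 and 8.31 in p53KO cells against 6.51, 6.36 and 6.01, and 8.17, 8.11 and 8.09 in WT cells against 6.31, 6.26 and 5.77. Its groups were as clearly apart, with rises of 1.95 ± 0.18 and 2.01 ± 0.18. RPL41 rose by 1.59 ± 0.14 in p53KO and 1.91 ± 0.14 in WT cells, and RPL36A by 1.58 ± 0.16 and 1.20 ± 0.16. Smaller rises in both genotypes were those of RPS23, a small subunit protein at the decoding centre (0.85 and 0.88), RPL23A (0.83 and 0.91), RPL27A (0.80 and 0.97), RPS15 (0.62 and 0.72), RPL14 (0.62 and 0.72) and RPS21 (0.39 and 0.42). RPL22, which was lower at 10 nM, was higher at 100 nM in p53KO cells by 0.45 ± 0.16 (adjusted p = 0.0148). Without the 4 doubted arrays RPL27A changed by 0.65 in p53KO and 0.59 in WT cells, RPS21 by 0.30 in WT and RPL22 by 0.37 in p53KO cells, none of them past the test, and the WT rise of RPS15 was 0.46. The RPS21 call was also lost, in each genotype, without untreated replicate 1 or 3 or 100 nM replicate 1 or 2, and that of RPL27A in p53KO cells without 100 nM replicate 3 and of RPL22 without 100 nM replicate 2.

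RPS26 and RPL28 were the members that were lower at 100 nM under both scalings. RPS26, a small subunit protein at the mRNA exit channel whose loss causes Diamond-Blackfan anaemia, had 6.49, 5.36 and 5.53 in p53KO cells against 9.08, 7.48 and 7.32 untreated, and 6.77, 6.27 and 5.54 in WT cells against 8.82, 7.49 and 7.44. The treated arrays lay below all untreated ones, and the first untreated array of each genotype stood far above the other two. The fall was 2.17 ± 0.37 in p53KO (adjusted p = 1.40e-05) and 1.72 ± 0.37 in WT cells (adjusted p = 2.33e-04), and without the 4 doubted arrays 1.61 (adjusted p = 2.07e-05) and 1.27 (adjusted p = 2.98e-04). RPL28, a large subunit protein, had 6.62, 6.34 and 6.26 in p53KO cells against 8.27, 7.56 and 7.84, and 6.08, 6.22 and 4.84 in WT cells against 7.63, 7.22 and 7.24. It fell by 1.48 ± 0.27 and 1.65 ± 0.27, again with no overlap of arrays. Each was undetected on 1 of its 100 nM arrays. RPL17 fell by 0.54 ± 0.18 in p53KO and 0.47 ± 0.18 in WT cells, RPL29 by 0.35 ± 0.15 in p53KO and RPL13A by 0.43 ± 0.17 in WT cells. The RPL13A call was lost without untreated replicate 1 (-0.32, also without all 4 doubted arrays) or 100 nM replicate 1 or 2. That of RPL17 in WT cells was lost without untreated replicate 1 or 2 or 100 nM replicate 2 or 3, and that of RPL29 without untreated replicate 1 or 2 or 100 nM replicate 2 or 3.

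How far the family as a whole moved at 100 nM depended on the scaling of the arrays. Quantile normalisation gives each array the same distribution, and the 75th percentile of raw intensity was lower at this dose. With arrays scaled to the same median instead, 59 members passed in each genotype, 57 higher and 2 lower. Over all features 52.8% were higher and 21.8% lower in p53KO, and 52.4% higher and 20.9% lower in WT cells. Higher members were 96.6% of the members that passed, against 73.3% (p53KO) and 77.8% (WT) after quantile normalisation. The median change of the 60 members was then 1.42 in p53KO and 1.55 in WT cells, while the median of all features had moved by 0.54 and 0.53. Relative to that shift the members' median was 0.88 in p53KO and 1.01 in WT cells, and 56 and 57 of the 60 lay above it. Among features at a level of 13 or more, the 34 members had a median of 1.44 in p53KO and 1.55 in WT cells and the 94 other features 1.49 and 1.56. Relative to the median of all features, RPS26 was at -2.30 in p53KO and -2.04 in WT cells, and RPL28 at -1.89 and -1.81. RPL17 did not pass in either genotype with this scaling, but relative to that median it was at -0.75 and -0.46. RPL29 changed by 0.41 in p53KO cells, -0.13 relative to the median. RPL13A changed by 1.05 in WT cells, 0.52 relative to the median and so opposite in sign to its fall above. The arrays measure relative amounts in total RNA, so fewer cells and less RNA per cell cannot be told apart.

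**Figure D3:**
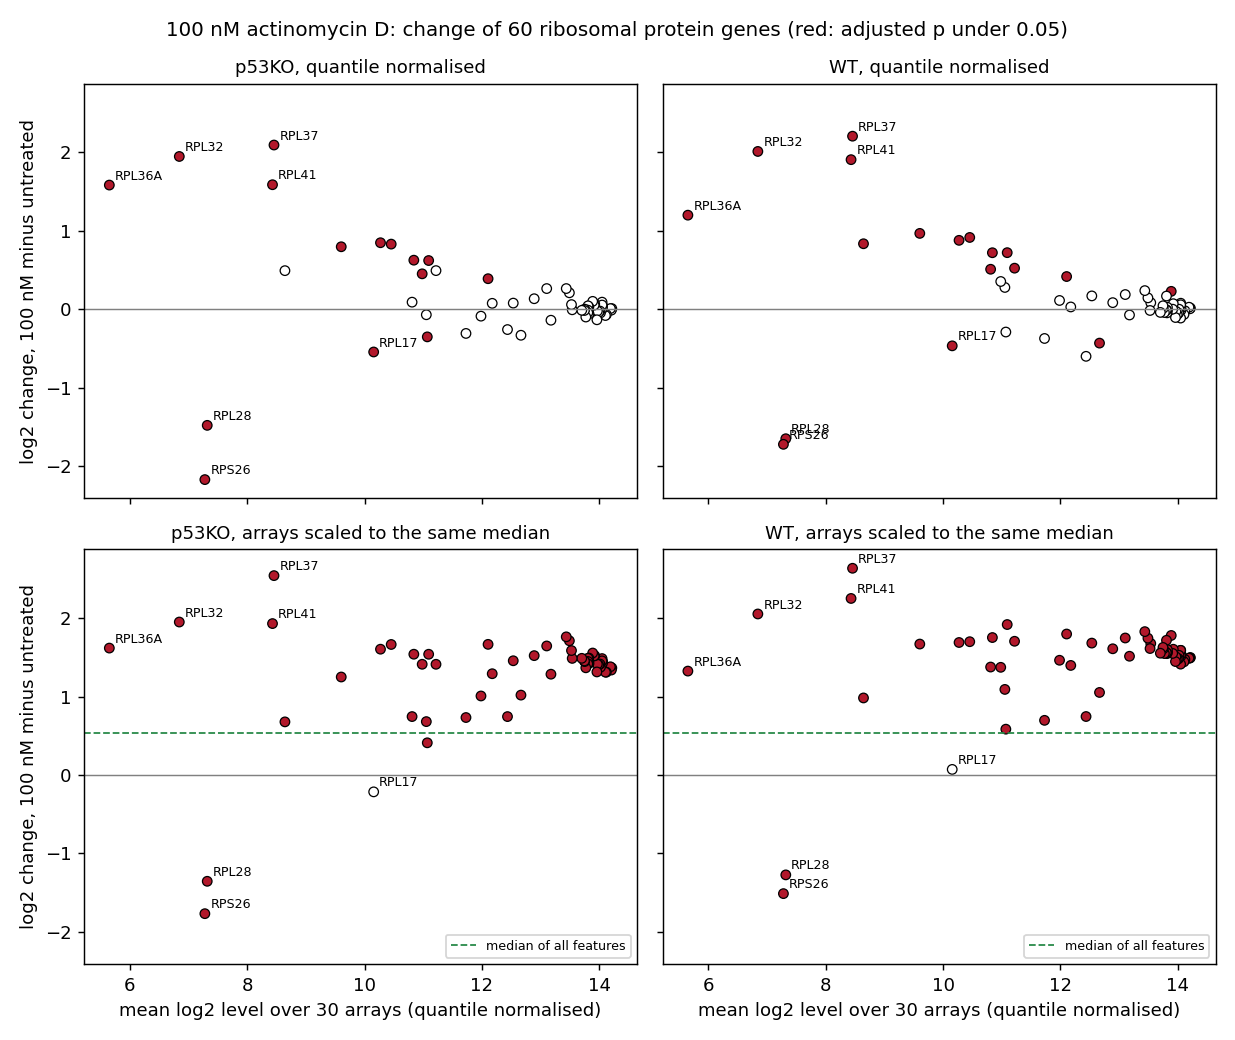
log2 change at 100 nM actinomycin D against untreated cells (vertical) by mean log2 level over 30 arrays (horizontal) for 60 ribosomal protein genes, p53KO left and WT right. Upper panels are quantile normalised, lower panels have arrays scaled to the same median, and the dashed line is the median of all features (0.54 and 0.53). Red points have an adjusted p under 0.05. Bright genes lie near 0 in the upper panels and near 1.5 in the lower panels, and RPS26 and RPL28 are below 0 in all.

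The share of array signal in the 67 member probes was compared next. A share divides by each array's own total and so measures relative amounts. It was 9.55, 10.3 and 10.6% of background-corrected intensity at 100 nM in p53KO cells against 6.96, 7.28 and 6.91% untreated. In WT cells it was 9.33, 10.0 and 10.9% against 7.25, 6.73 and 6.68%. All 100 nM arrays lay above all untreated arrays. The difference was 3.11 percentage points in p53KO and 3.19 in WT cells, each with p = 0.1 (two-sided exact permutation test), the smallest that 3 against 3 arrays allow. Pooling the genotypes and permuting arrays only inside each of them, it was 3.15 points (exact permutation p = 0.005, adjusted p = 0.06 over 12 such tests), which did not pass after adjustment. At 1 and 10 nM and with nutlin the differences ran from -0.34 to 0.45 points. The second p53KO array at 1 nM stood at 8.86% against 7.05 and 6.57% on the others, and without it that difference of 0.45 turned to -0.23.

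**Figure D4:**
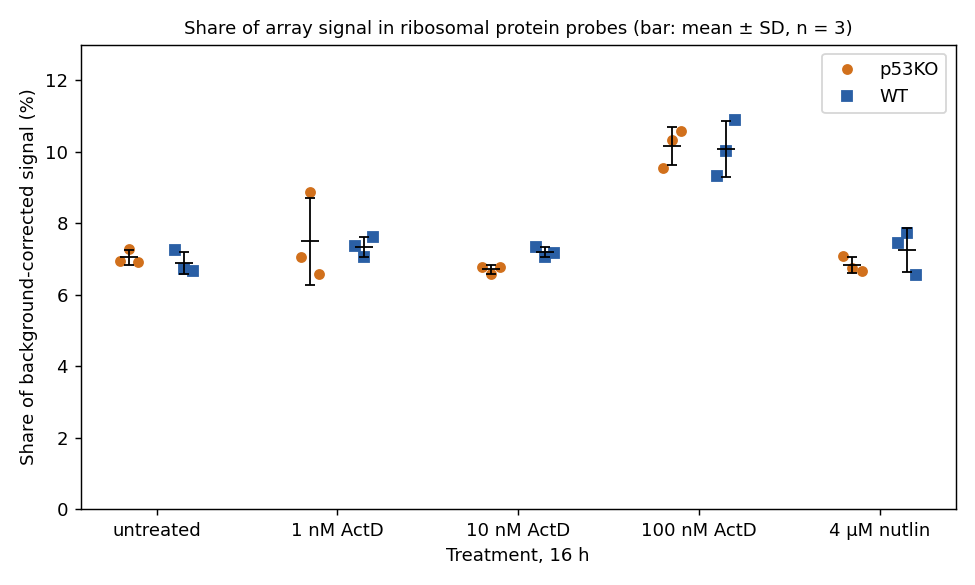
Share of background-corrected array signal (vertical, percent, from 0) in ribosomal protein probes on each array by treatment, p53KO (circles) left of WT (squares), with mean ± SD of 3 arrays. The arrays at 100 nM lie between 9.33 and 10.9%, and every other array lies below 9%.

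A pair of kept probes was available for 7 members (RPL6, RPL8, RPL9, RPL13, RPL32, RPL34 and RPL36), and the probes often disagreed. Among these pairs, those that differed in whether the test was passed numbered 6 at 10 nM in each genotype and 5 at 100 nM in each genotype (limma, adjusted over all kept probes). In 4 of the pairs, those of RPL6, RPL8, RPL9 and RPL13, both rows carry the same probe identifier in the deposited file. RPL9, a large subunit protein, had a bright probe at a mean level of 14.05 whose change at 10 nM was -0.09 ± 0.10 in p53KO and -0.04 ± 0.10 in WT cells. Its dimmer probe, at 10.34, rose by 1.22 ± 0.14 and 1.56 ± 0.14. RPL6, another large subunit protein, behaved likewise, with -0.12 ± 0.09 and -0.07 ± 0.09 on the bright probe and rises of 0.90 ± 0.14 and 1.14 ± 0.14 on the dimmer one. For RPL36 at 100 nM the dimmer probe rose by 1.87 ± 0.18 in p53KO and 2.06 ± 0.18 in WT cells, and the bright probe's changes were 0.26 ± 0.15 and 0.24 ± 0.15. For RPL34 and RPL32 at 10 nM the brighter probe passed and the dimmer one did not, with 0.73 against -0.33 for RPL34 in p53KO and 1.35 against 0.09 in WT cells. A gene-level result is therefore that of its brightest probe. Which transcripts each probe binds was not tested.

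**Figure D5:**
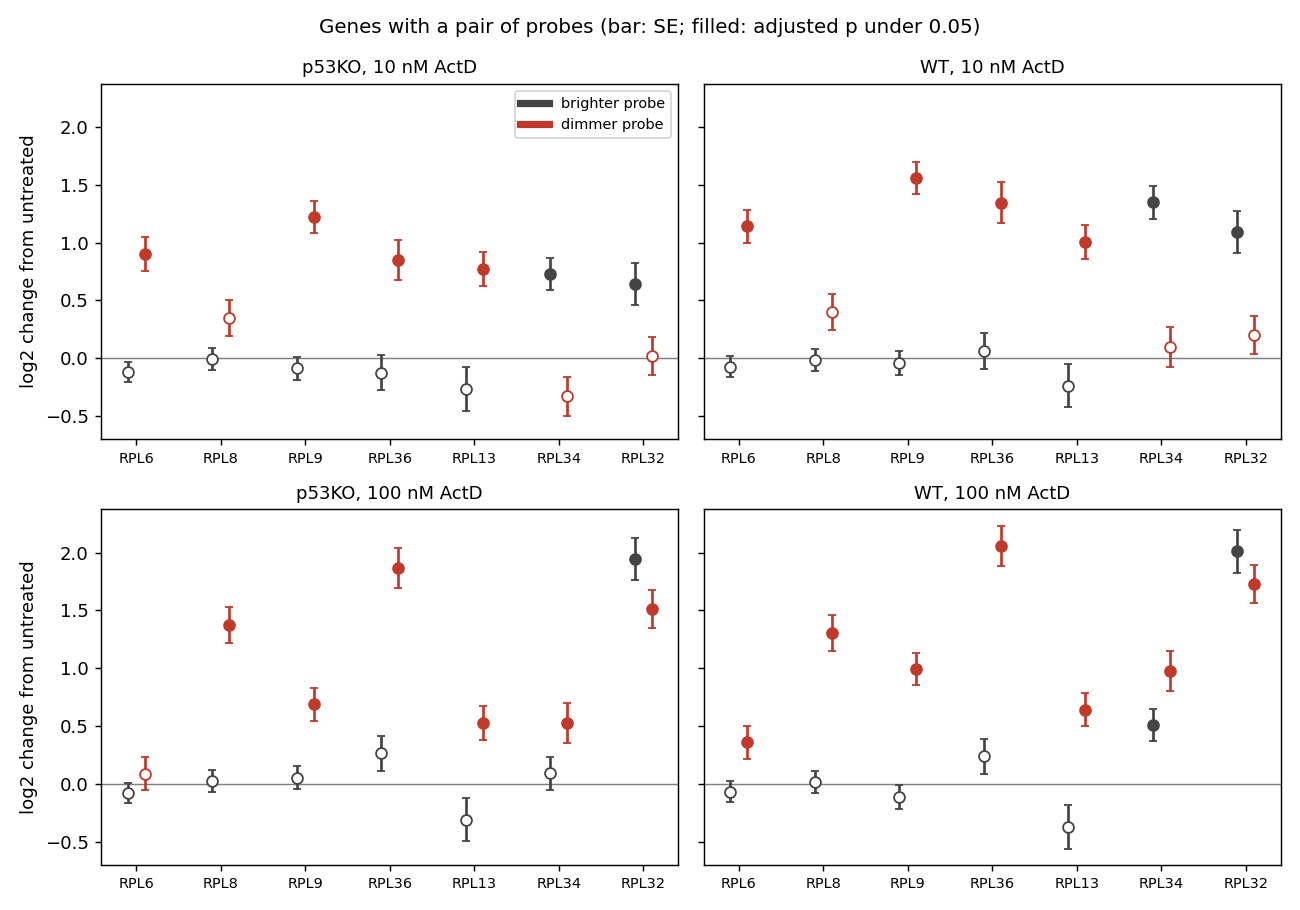
log2 change from untreated cells (vertical, bars SE) for the 7 genes with a pair of kept probes, brighter probe dark and dimmer probe red, at 10 and 100 nM actinomycin D, p53KO left and WT right. Filled points have an adjusted p under 0.05. Dimmer probes of RPL9, RPL36 and RPL13 are above 0.5 in all panels and their brighter probes below 0.3.

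Set against 10 nM, 100 nM actinomycin D gave 18 members past the test in p53KO cells, 14 higher and 4 lower (64.8% of all features passed, 32.3% higher and 32.5% lower), and 20 in WT cells, 14 higher and 6 lower (64.6% of all features, 32.0% higher and 32.6% lower). The WT arrays of both doses met on 2 slides. RPL37 was higher at 100 nM by 1.61 ± 0.12 in p53KO and 1.88 ± 0.12 in WT cells, and in WT cells the difference was 1.96 on 1 slide and 1.81 on the other. RPL22 was higher by 0.92 ± 0.16 and 1.01 ± 0.16, RPL10A by 0.68 ± 0.15 and 0.74 ± 0.15, and RPL3 by 0.28 ± 0.09 (not past the test without p53KO 10 nM replicate 2) and 0.32 ± 0.09. These 3 genes had been lower at 10 nM than in untreated WT cells. RPL17 was lower by 0.95 ± 0.18 and 0.86 ± 0.18. With arrays scaled to the same median 56 members passed in each genotype, 53 higher and 3 lower in p53KO and 54 higher and 2 lower in WT cells. Over all features 51.7% were higher and 22.0% lower in p53KO, and 51.2% higher and 21.1% lower in WT cells. Higher members were then 94.6% and 96.4% of those that passed, against 77.8% and 70.0% after quantile normalisation, and the median of all features had moved by 0.51 and 0.50.

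Between the genotypes untreated, 1 member passed the test (1.28% of all features passed, 0.46% higher and 0.824% lower in p53KO). RPL23A, a large subunit protein near the exit tunnel, had 10.38, 10.56 and 10.45 in p53KO cells and 9.68, 9.99 and 9.93 in WT cells. All p53KO arrays lay above all WT arrays, by 0.60 ± 0.13 in the mean (adjusted p = 0.0248). Without the 4 doubted arrays the difference was 0.54 ± 0.11 (adjusted p = 0.00534), but leaving out any 1 untreated array on its own ended the call, and with genotypes paired by replicate number 0 members passed. Shares of all features under that pairing are not given here. RPS27L differed by -0.87 ± 0.32 (adjusted p = 0.225). With slide as a fixed block it passed (-0.87 ± 0.13, limma, adjusted p = 1.30e-04), and with a random slide term it did not (-0.87 ± 0.25, adjusted p = 0.0502). Without the 4 doubted arrays it differed by -0.68 ± 0.15 (adjusted p = 0.00968). RPL41 was then higher in p53KO cells by 0.45 ± 0.12 (adjusted p = 0.0313). With all arrays and no slide term, 0 of 60 members passed for a difference in response between the genotypes at 1, 10 or 100 nM or with nutlin (limma), and with slide as a fixed block RPL34 passed at 10 nM, as given above. The shares of all features that passed at an adjusted p under 0.05 were 0, 0.425, 0.234 and 0% in the same order. At an unadjusted p under 0.05 the counts were 0, 1, 1 and 0 members. Those shares, at another threshold, are no background for these counts.

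Nutlin left 0 of 60 members past the test in p53KO and in WT cells (limma), with 1 and 3 members at an unadjusted p under 0.05. Few features of any kind passed at the adjusted threshold with all arrays as labelled, 0.0521% in p53KO and 0.234% in WT cells. These shares are no background for the counts at an unadjusted p. Without the 4 doubted arrays 0 members passed in p53KO cells and 3 in WT cells, where RPS27L was higher and RPL23 and RPL7 were lower, by -0.74 ± 0.19 (adjusted p = 0.0411) and -0.81 ± 0.20 (adjusted p = 0.0335). With slide as a fixed block 4 members passed in p53KO and 5 in WT cells, RPS7, RPL13 and RPS26 in both. RPS27L passed in WT cells (0.64 ± 0.18, limma, adjusted p = 0.0134) and not in p53KO cells (0.05 ± 0.18). The difference between these RPS27L responses did not pass (-0.59 ± 0.21, adjusted p = 0.600). The shares of all features above come from all arrays without a slide term. They are therefore no background for the counts with slide as a block or without the doubted arrays. Nutlin and untreated arrays of a genotype met on 1 slide, whose only untreated array was the doubted first one. The RPS27L value with slide as a fixed block rests on that array too. None of RPS7, RPL13 and RPS26 passed without the 4 doubted arrays.

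Of 17 listed ribosomal proteins that have been reported to bind MDM2, 15 were tested. At 10 nM, 1 passed in p53KO cells (RPL37) and 3 in WT cells (RPS7, RPS27L and RPL37), all higher, against 21.6% and 30.9% of all features, and the list's medians were -0.02 and 0.02 against 0.04 and 0.03 over all features. At 100 nM RPL37 and RPS15 were higher and RPS26 lower in both genotypes, 3 of 15 (20%) where 66.1% and 65.7% of all features passed. RPL11 had group means of 14.16 to 14.20 in all 10 groups, and its largest change was 0.03. Its raw intensity averaged 18669 units, near the brightest probe of each array (16668 to 24426 units). RPL6 is also listed, and its dimmer probe rose at 10 nM while its bright probe did not pass. RPL5 changed by at most 0.10, RPS14, encoded in the region lost in 5q- syndrome, by 0.06, and RPL26, a large subunit protein, by 0.33. RPL23 changed by at most 0.37. None of these 5 passed the test with quantile normalisation and all arrays. After median scaling, RPL11 at 100 nM changed by 1.38 ± 0.13 in p53KO and 1.49 ± 0.13 in WT cells. RPL5 changed by 1.37 ± 0.13 and 1.55 ± 0.13, and both genes were close to the median of bright features. With that scaling 14 of the 15 were higher and 1 lower in each genotype. The shares of all features were 52.8% higher and 21.8% lower in p53KO, and 52.4% and 20.9% in WT cells.

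Of 19 genes mutated in Diamond-Blackfan anaemia, a failure of red cell formation, 14 were tested. RPS26 was lower at 100 nM in both genotypes and RPS7 higher at 10 nM in WT cells, and no other passed in any treatment after quantile normalisation, where 66.1% and 65.7% of all features passed at 100 nM and 30.9% at 10 nM in WT cells. With arrays scaled to the same median, 13 of the 14 were higher at 100 nM and 1, RPS26, lower in each genotype. The shares of all features were then 52.8% higher and 21.8% lower in p53KO, and 52.4% and 20.9% in WT cells. RPS19, the gene most often mutated in it, was at 14.05 on average and changed by at most 0.08 after quantile normalisation. RPS6 changed by at most 0.09, RPLP2, a protein of the stalk that recruits elongation factors, by 0.10, and RPS4X, encoded on the X chromosome, by 0.29, and none passed the test after quantile normalisation.

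Outside the family by symbol, FAU, whose product includes the small subunit protein eS30, changed by at most 0.16 after quantile normalisation and did not pass. The paralog RPL36AL fell at 100 nM by 0.54 in p53KO and 0.53 in WT cells, while RPL36A rose, and RPL26L1 rose by 0.79 and 0.94. Of 14 other TOP mRNAs, which encode translation factors and related proteins, 4 were lower at 10 nM in p53KO cells and 5 in WT cells, and 0 were higher (28.6% and 35.7% passed, against 21.6% and 30.9% of all features, 11.2% and 15.4% lower). EEF1D, an elongation factor subunit, fell by 1.22 in both genotypes, and EIF4B and EIF3H, initiation factors, fell in both as well. At 100 nM 2 were higher and 3 lower in p53KO cells and 1 higher and 3 lower in WT cells, 35.7% and 28.6% where 66.1% and 65.7% of all features passed. Of 77 mitochondrial ribosomal protein genes, 58.4% passed at 100 nM in p53KO cells (22 higher, 23 lower) and 55.8% in WT cells (21 higher, 22 lower), near the backgrounds of 66.1% and 65.7%. Of 8 p53 target genes checked after quantile normalisation, 0 rose in p53KO cells and 6 rose in WT cells at 1 and at 10 nM. At 100 nM 0 rose in either genotype. At 1 and 10 nM 0.312% and 10.4% of all features rose in p53KO cells, and 4.06% and 15.6% in WT cells. The shares at 100 nM were 33.8% (p53KO) and 33.2% (WT). Values of these 8 genes with nutlin and after median scaling are not given here.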

How the data were processed

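Total RNA of HCT116 cells was amplified, labelled and hybridised to Illumina bead arrays. The deposited table holds, per probe and array, an unnormalised intensity and a detection p-value, and the authors' processed intensity stands in a second table. Per the submitters' processing notes BeadStudio was used, in a version not given in the sources used here. Values of 26 further array columns were not used here. In all, 1588 probe identifiers occurred more than once, so rows were kept apart.

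Deposited intensities were background corrected from the detection p-values, quantile normalised and put on a log2 scale (neqc, offset 16, limma 3.58.1, R 4.3.3). The brightest probe stood for each gene. One limma model over all 30 arrays (20 residual degrees of freedom) gave 15 comparisons, with Benjamini-Hochberg adjustment over 11526 features and a threshold of 0.05. Genotype comparisons and responses are p53KO minus WT. In simulated data for WT cells at 100 nM with 200 of 11526 features changed, 9% of log2 changes of 0.5 were recovered, 82% of 1 and 98.5% of 2. In the measured data 7578 features (65.7%) passed in that comparison, which makes the adjusted threshold less strict there. The simulated shares therefore do not give the sensitivity of that comparison. The number of arrays limits the precision. The share of signal was compared by exact permutation. Promoter searches and figures used Python 3.11.15 and matplotlib 3.10.9.

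Members and lists were chosen with earlier results of these data known. Named are, per comparison, the 4 highest and 4 lowest members that passed with no overlap of arrays, the 3 highest and 3 lowest levels, genes whose probes differ in the test, members undetected in a group, up to 4 that passed per list, and a fixed set of members. Other members that passed were named after their values were seen. Same-numbered p53KO and WT arrays deviated together (correlations of 0.60 to 0.78 untreated and 0.23 to 0.52 with actinomycin D, but -0.44 to 0.01 with nutlin), so genotypes were also compared with the replicate number as a block. Treated and untreated arrays were not paired in this way. Untreated p53KO and WT arrays of the same number also shared a slide, so slide and pairing cannot be told apart there. Alternatives were another scaling, the authors' processed values, stricter detection, every probe on its own, slide terms, and arrays left out.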

Additional observations from a re-analysis of the deposited data

How the results depend on the processing

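With arrays scaled to the same median, members past the test numbered 59 in both genotypes at 100 nM, 56 in both between 100 and 10 nM, and 0 in p53KO cells at 1 nM. That scaling moved the median of all features by 0.54 (p53KO) and 0.53 (WT) at 100 nM and by 0.50 between doses in WT cells. The sign turned for RPL17 (0.0714) and RPL13A (1.05) in WT cells at 100 nM and RPL29 in p53KO cells at 100 nM (0.41) and in WT cells between doses (0.39). Relative to that median only RPL13A turned (0.52), and the other 3 stayed below it. With every kept probe on its own, 11 passed in p53KO cells at 10 nM and 7 in WT cells at 1 nM. With slide as a random term the counts were 0, 2 and 2 in p53KO cells at 1 nM, 10 nM and with nutlin, 0, 4 and 3 in WT cells, and 3 between untreated genotypes. With slide as a fixed block, possible only where slides held several groups, they were 4 (p53KO) and 5 (WT) with nutlin, 4 between untreated genotypes and 1 for the response to 10 nM, and the nutlin counts rest on the doubted first untreated array of each genotype. Without the 4 doubted arrays, 6 passed in WT cells at 1 nM, 3 in WT cells with nutlin, 3 between untreated genotypes and 1 for each response to 1 and 10 nM, and the WT share of signal with nutlin differed by 0.886 points. With genotypes paired by replicate number as a block, 0 passed between untreated genotypes, and no other count changed by over 1.5 times. Pairing together with leaving out the 4 doubted arrays, chosen after seeing the data, gave 4 between untreated genotypes and 1, 2 and 1 for the responses to 1 nM, 10 nM and nutlin. The replicate number as a term left 94 of 94 gene results on their side of the threshold. Shares of all features that passed are given above for the main model and for median scaling only. The counts under the other settings therefore have no background here. The cause of these changes was not tested.

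Leaving out 1 array at a time gave, in p53KO cells, 0 to 2 members at 1 nM, 5 to 7 at 10 nM, 12 to 16 at 100 nM, 0 with nutlin and 17 to 18 between doses. In WT cells it gave 1 to 4, 7 to 11, 14 to 18, 0 and 18 to 20. Between untreated genotypes and for each response it gave 0. The count of 1 in WT cells at 1 nM came without 1 nM replicate 2, that of 7 at 10 nM without untreated replicate 3 or 10 nM replicate 2, and that of 0 in p53KO cells at 1 nM without any 1 untreated array or 1 nM replicate 2 or 3. Share differences ran, in p53KO cells, from -0.235 to 0.911 points at 1 nM, -0.406 to -0.222 at 10 nM, 2.90 to 3.41 at 100 nM and -0.338 to -0.0977 with nutlin. In WT cells they ran from 0.317 to 0.635, 0.201 to 0.489, 2.79 to 3.57 and 0.107 to 0.703. The p53KO difference at 1 nM was -0.235 without its replicate 2. Of 95 gene results, 93 kept their call with the authors' processed values.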
